A study of Mus musculus with 25 samples.

Results

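Antibody transcripts divided the 7 medial prefrontal cortex libraries of 5xFAD mice that had received the iβARK virus into 3 antibody-rich and 4 antibody-poor libraries. The rule was the level of Igkc, the constant region of the kappa light chain, in CPM, counts divided by the library's total count and multiplied by 1000000. Members were chosen by this measured value, and rich libraries held 100 CPM or more. Rich were male iβARK 1, with 1202 CPM, male iβARK 2, with 284 CPM, and female iβARK 4, with 1776.5 CPM. Poor were male iβARK 3, with 10.5 CPM, and female iβARK 1, 2 and 3, with 49.9, 48.8 and 41.3 CPM. The members nearest to the threshold were therefore male iβARK 2 above it and female iβARK 1 below it. These 7 belong to a series of 25 bulk polyA RNA libraries from 25 labelled samples.

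The other 18 libraries came from mice with an mCherry virus and served here for comparison: 4 male and 5 female 5xFAD, and 4 male and 5 female wild-type (WT) littermates. Virus was AAV2/5 in all groups, given at 3 to 4 months of age, with tissue taken 45 days later. The 5xFAD line carries human transgenes, mutant APP among them, under Thy1 promoter sequence, and both iβARK classes and the 5xFAD mCherry controls carry it. The line is known for amyloid plaques and reactive microglia. iβARK is a peptide from the kinase Grk2 that holds back Gq-coupled receptor signalling, and the series was made to ask how damping calcium activity in astrocytes changes the cortex. No group received an inactive form of the peptide. The promoter that drove it is not given in the sources used here, and the labels do not say that tissue was perfused free of blood.

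Antibodies are made by plasma cells, which arise from B cells, splice a heavy chain variable segment and a light chain variable segment to constant regions, and secrete the product in large amounts through an expanded endoplasmic reticulum. Cells of the same plasma cell clone share a pair of variable segments, but unrelated clones can use the same pair. A leading or shared pair therefore does not identify a clone. Plasma cells are rare in healthy brain tissue and enter or form there in some infections and inflammatory diseases, usually together with T cells, whose interferon gamma switches on antigen presentation by MHC molecules in microglia and other cells. The mouse IgG2c and IgG2b isotypes are the classes commonly made after viral infection.

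Library totals were 45234060 to 71937315 counts, and among the iβARK libraries male iβARK 3 was the shallowest. In the 18 mCherry libraries Igkc ran from 0 to 10.8 CPM. Since the classes were cut from a measured value, every rich-minus-poor difference below is a description without a p-value. The 3 rich libraries are 2 male and 1 female and the 4 poor are 1 male and 3 female. Fitted differences were therefore taken within a sex, and their male part rests on 1 poor library, male iβARK 3. Whether rich and poor libraries overlap was judged over both sexes together. Whole tissue was sequenced, so more cells of a type and more RNA per cell cannot be told apart.

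**Figure D1:**
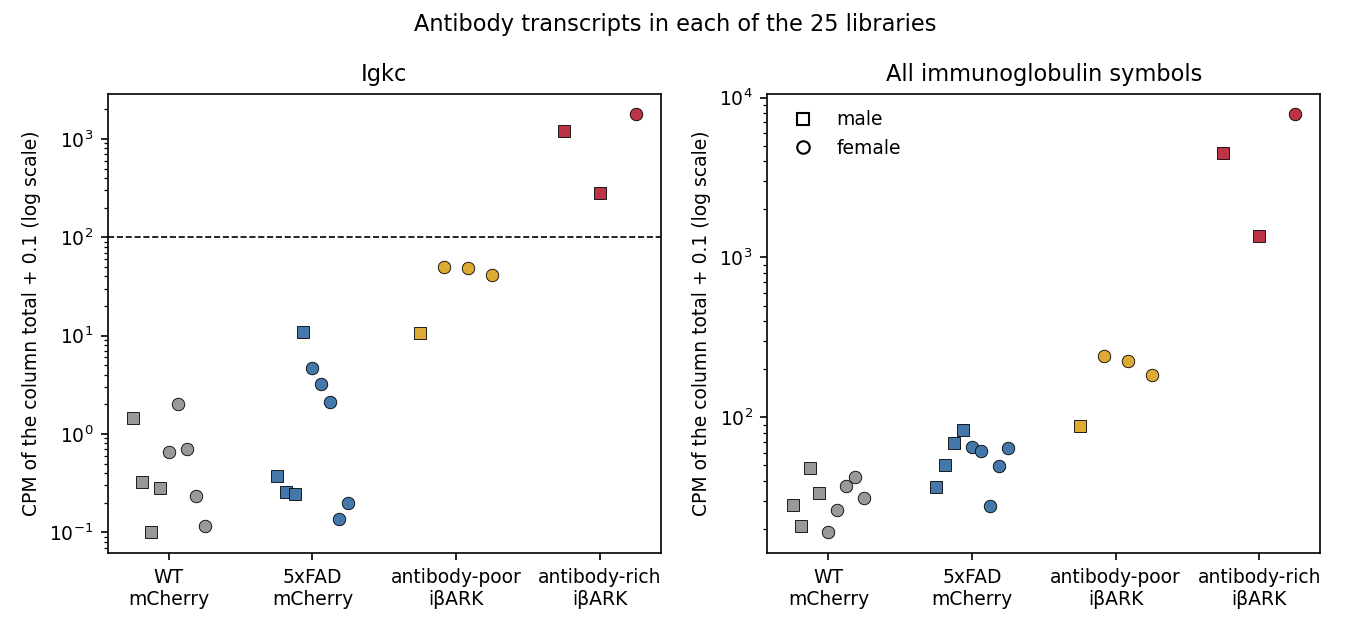
Igkc (left) and the sum of all immunoglobulin symbols (right) in each of the 25 libraries, in CPM plus 0.1 on log axes; squares are male, circles female, and the dashed line marks 100 CPM. The 3 antibody-rich iβARK libraries lie at 284 to 1776.5 CPM of Igkc, and no mCherry library exceeds 10.8.

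Heavy chain variable segments that led 6 of the 7 libraries are shown first, because they carry the pattern among them; the segment that led male iβARK 3, Ighv1-55, and the kappa segments are named only. The lines give the last 240 bases of the germline reference segment (GENCODE M21, GRCm38, minus strand of chromosome 12, read 5′ to 3′), not the sequence of any antibody in these mice. Capitals mark bases that differ from Ighv1-26, the segment that led the 3 female poor libraries.
Ighv1-26 (chr12:114788372-114788611): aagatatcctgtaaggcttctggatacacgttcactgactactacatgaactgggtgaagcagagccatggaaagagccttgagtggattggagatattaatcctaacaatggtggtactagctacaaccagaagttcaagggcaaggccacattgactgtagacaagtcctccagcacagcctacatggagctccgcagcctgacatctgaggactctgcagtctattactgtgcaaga
Ighv1-9 (chr12:114583569-114583808): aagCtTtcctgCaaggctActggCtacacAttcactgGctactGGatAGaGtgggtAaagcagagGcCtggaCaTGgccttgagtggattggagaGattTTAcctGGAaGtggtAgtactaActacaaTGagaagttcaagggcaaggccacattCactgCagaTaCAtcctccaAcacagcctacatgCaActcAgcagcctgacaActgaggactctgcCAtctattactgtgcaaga
Ighv1-72 (chr12:115757984-115758223): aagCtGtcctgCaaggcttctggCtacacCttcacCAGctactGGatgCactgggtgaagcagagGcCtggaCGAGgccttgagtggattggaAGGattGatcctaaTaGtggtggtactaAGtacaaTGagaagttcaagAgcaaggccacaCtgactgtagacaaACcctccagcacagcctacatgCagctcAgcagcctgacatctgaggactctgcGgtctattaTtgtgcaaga
Ighv1-19 (chr12:114708648-114708887): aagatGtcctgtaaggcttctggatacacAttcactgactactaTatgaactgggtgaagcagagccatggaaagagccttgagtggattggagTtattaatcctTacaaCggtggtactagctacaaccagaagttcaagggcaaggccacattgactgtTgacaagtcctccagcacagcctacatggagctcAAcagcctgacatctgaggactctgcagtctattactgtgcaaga
Over these 240 bases Ighv1-19 was 96.2% identical to Ighv1-26, with 9 differences. Ighv1-72 was 85.4% identical and Ighv1-9 82.5%. Reads from such close copies can be split between neighbours by the authors' counting, and antibody genes also mutate after rearrangement, so a share below belongs to a symbol and may include its relatives.

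Each antibody-rich library was led by its own pair of segments. Of the heavy chain variable counts in male iβARK 1, Ighv1-9 held 57.7% (95% Wilson interval 57.2 to 58.2%, counting error only) and of the kappa variable counts Igkv2-109 held 39.5% (39.2 to 39.9%). In male iβARK 2 the leading pair was Ighv1-72 at 73.8% (73 to 74.6%) and Igkv9-123 at 70.5% (69.8 to 71.1%). In female iβARK 4 it was Ighv1-19 at 65.9% (65.6 to 66.3%) and Igkv8-27 at 62.5% (62.3 to 62.8%). None of these 3 pairs led another iβARK library. Ighv1-19 stood at 838 CPM in female iβARK 4, at 0.206 and 0.266 CPM in male iβARK 1 and 2, and at 0 in the 4 poor libraries. Igkv8-27 stood at 1264 CPM in the same library and had counts in 2 of the 7 iβARK libraries. Igkv9-123 stood at 238 CPM in male iβARK 2 and at 0 in all 18 mCherry libraries. Other segments were common to the 3 rich libraries. In the order male 1, male 2 and female 4, Ighv2-2 stood at 87, 16.6 and 39.3 CPM and Ighv5-6 at 52.5, 12.9 and 140 CPM. Both were at 0 in the 4 poor libraries. Igkv5-39 stood at 164, 15.5 and 236 CPM, against 0.575 to 3.97 CPM in the poor. Ighv1-72 also reached 42.3 CPM in male iβARK 1, and Ighv1-9 36.3 CPM in female iβARK 4.

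The 3 female poor libraries were led by the same pair. Ighv1-26 held 87.5% (86 to 89%) of heavy chain variable counts in female iβARK 1, 76.4% (74.3 to 78.3%) in female iβARK 2 and 85% (82.8 to 87%) in female iβARK 3. Igkv6-25 held 67.8% (66.2 to 69.3%), 70.3% (68.6 to 71.9%) and 90.6% (89.3 to 91.8%) of their kappa variable counts. Their next segments differed: Igkv13-84 held 22.4% in female iβARK 1, Igkv6-23 held 26.3% in female iβARK 2, and Ighv1-55 held 18.7% of the heavy chain counts there. Male iβARK 3 was led by Ighv1-55, with 62.8% (57.1 to 68.1%) of 290 heavy chain counts, followed by Ighv1-26 with 30%.

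The segments of the shared pair had counts in all 7 iβARK libraries. Ighv1-26 stood at 1.92, 26.6, 23 and 14.6 CPM in the poor libraries, in the order male 3 and female 1 to 3. It stood at 12.8, 7.37 and 67.2 CPM in the rich libraries, in the order male 1, male 2 and female 4. The highest mCherry library had 0.35 CPM, and 14 of 18 had 0. Rich and poor thus overlapped in Ighv1-26, in contrast to Igkc. Igkv6-25 was highest in rich male iβARK 1 and female iβARK 4, with 8073 and 6754 counts, but these made up only 12.3% and 5.59% of their kappa variable counts. Which of these reads come from the same cells was not tested, since heavy and light chains are not linked in bulk RNA.

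**Figure D2:**
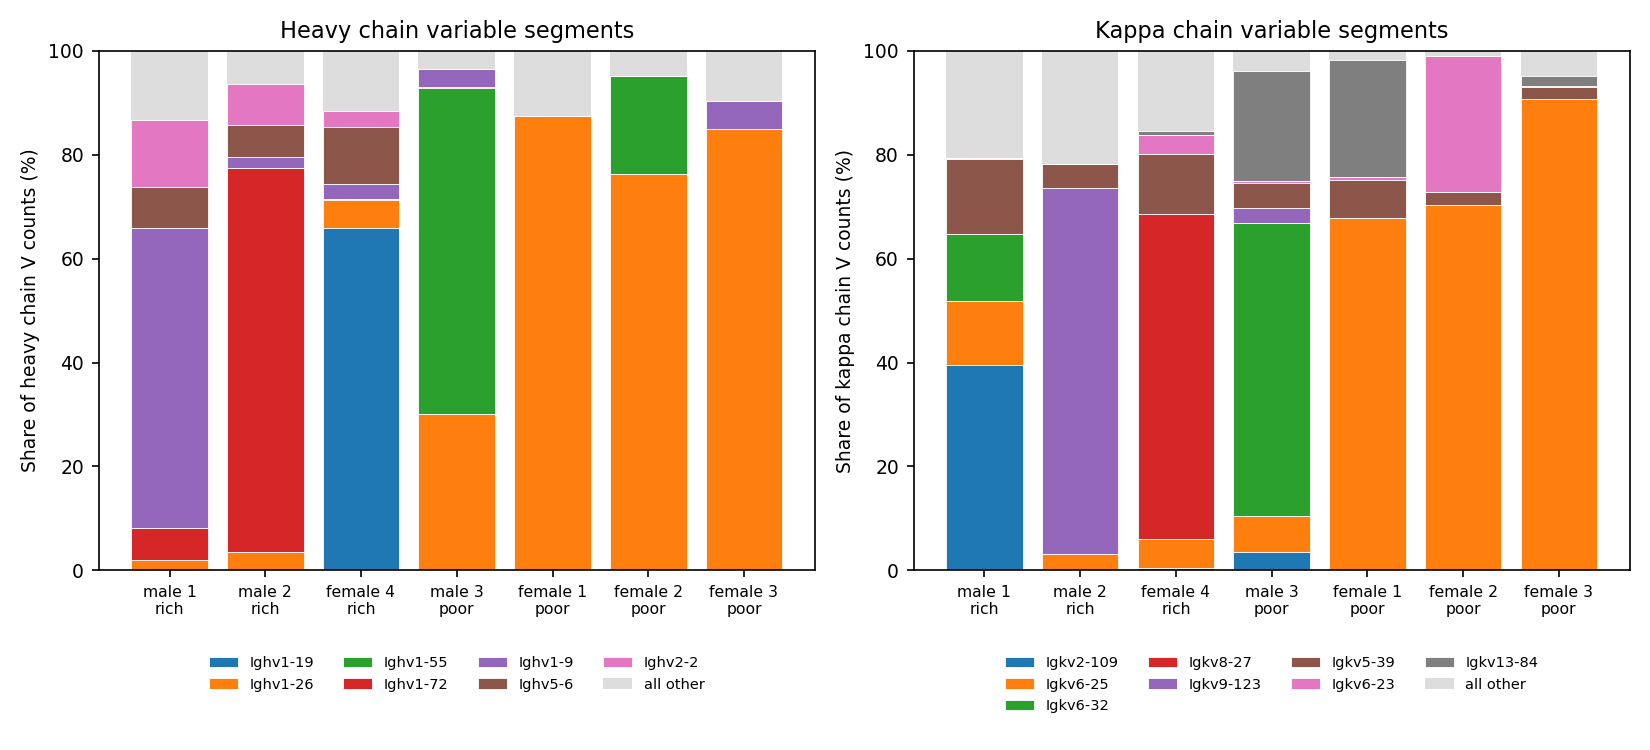
Share (%) of heavy chain (left) and kappa chain (right) variable segment counts held by named segments in each iβARK library; each bar is 1 library and grey is all other segments. The 3 rich libraries are each led by another segment, and the 3 female poor libraries by Ighv1-26 and Igkv6-25.

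Few segments carried most counts in the 7 iβARK libraries. The effective number of heavy chain segments (the inverse of the summed squared shares) was 2.73, 1.79 and 2.2 in the rich libraries and 1.3 to 2.06 in the poor ones. Segments with 10 counts or more numbered 22, 12 and 30 of 183 in the rich and 3 to 6 in the poor libraries, which also held far fewer counts. Among mCherry libraries, male 5xFAD mCherry 4, which had the highest Igkc of them, was led by Ighv1-72 (69.5% of 151 counts) and Igkv5-39 (98.5% of 336 counts). Female 5xFAD mCherry 1 was more mixed, with Ighv1-66 first at 22.5% of 120 counts and an effective number of 5.33.

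IgG2c made up most constant region signal in the rich libraries. After division by exon length, Ighg2c held 77.9, 78.7 and 87.2% of heavy chain constant signal in male iβARK 1, male iβARK 2 and female iβARK 4, and 10.4 to 30.7% in the poor libraries. Some constant region signal was present without Igkc. Male WT mCherry 3 had 0 Igkc counts and 48.1 CPM of immunoglobulin symbols, with 86.1% Ighm and 13.4% Ighg2c by length. How much of the poor libraries' signal is of this kind was not tested, so their shares may not be those of antibody-producing cells. Ighg2c (chromosome 12, 113285325 to 113288932, minus strand) stood at 986, 351 and 2144 CPM in the rich libraries. It stood at 4.16, 10.9, 6.6 and 20 CPM in the poor libraries, and at 4.74 to 7.17 CPM in the 5xFAD mCherry group, so female iβARK 1 and 3 lay above that range and the other poor libraries did not. The fitted rich-minus-poor difference was 7.33 ± 0.35 (log2 ± SE).

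Ighg2b, the IgG2b constant region, behaved otherwise. It stood at 30.1, 118 and 427 CPM in the rich and at 10.8, 37.3, 52.8 and 8.09 CPM in the poor libraries, so the classes overlapped. Every poor library lay above the 5xFAD mCherry maximum of 2.99 CPM. By length, Ighg2b held 43.9% of the constant signal in female iβARK 2 and 1.18% in rich male iβARK 1. Igha, the IgA constant region, reached 283 CPM in male iβARK 1 and 106 CPM in female iβARK 4, against 4.67 CPM in male iβARK 2 and 0.323 to 7.86 CPM in the poor libraries.

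Ighm, the IgM constant region, did not follow Igkc. Apart from male iβARK 1, at 175 CPM, the other rich libraries had 47.5 and 53.3 CPM, the poor 37.2 to 54.1 CPM, and the 5xFAD mCherry libraries 16.2 to 61.1 CPM. Lambda light chains were rare in the rich libraries, at 0.361, 0.516 and 0.26% of light chain constant counts, and among the iβARK libraries highest in poor female iβARK 3, at 4.16% (3.48 to 4.97%).

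Beyond antibody genes, 349 of 20933 tested genes (1.67%) were called higher in rich libraries and 87 (0.416%) lower. A call needed all 3 rich libraries on 1 side of all 4 poor ones in CPM, whatever their sex, and a fitted fold of at least 2. Without the fold limit, 1174 genes (5.61%) lay higher in every rich library and 341 (1.63%) lower. The median fitted difference over all non-immunoglobulin genes was 0.01. Of the 349 higher genes, 79 were predicted gene models and 94 averaged 1 CPM or more over the series. Of the 87 lower genes, 61 were predicted models and 12 reached that level. Only 214 of the 349 higher genes passed the filter on low counts when the mCherry libraries were fitted alone. A gene that passes only through the class where it is high has to differ, so both counts are a description. Without a filter the counts were 680 higher and 170 lower, and with a stricter filter 83 and 12.

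Male iβARK 2 was the weakest of the rich libraries. It was the lowest of the 3 in 267 of the 349 higher genes, against 49 for male iβARK 1 and 33 for female iβARK 4. In 256 of the 349 all 3 rich libraries also lay above all 9 5xFAD mCherry libraries, and in 27 all 4 poor libraries did. Without male iβARK 2, and with only 2 rich libraries left to separate, the counts were 795 and 247.

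Plasma cell and B cell markers were higher in the rich libraries; Igkc chose the libraries, so these markers are a check of the label. Jchain, which joins antibody units into polymers (chromosome 5, 88519809 to 88527891), stood at 212, 66.5 and 306 CPM in the rich and at 1.42, 16.6, 4.64 and 11.8 CPM in the poor libraries. All rich libraries lay above all poor ones, and the fitted difference was 5.44 ± 0.61. Mzb1, a chaperone of antibody secretion, stood at 4.09, 0.71 and 5 CPM against 0.0163 to 0.119, and Pou2af1, a B lineage coactivator, at 6.97, 1.28 and 12.6 CPM against 0.0221 to 0.635. Derl3, which works in the disposal of misfolded proteins, stood at 11.2, 2.38 and 13.6 CPM against 0.752 to 1.27. Irf4, the factor of plasma cell fate, stood at 7.04, 2.24 and 15.6 CPM against 0.717 to 1.07.

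In total 8 of 20 plasma cell genes were called higher and none lower, with a list median of 1.16 on the log2 scale. The poor libraries' summed plasma cell level, 269 to 304 CPM, overlapped the 267 to 292 CPM of the 5xFAD mCherry libraries, while the rich ran from 395 to 759 CPM. Of the B cell list, 15 of 18 genes passed the filter on low counts and 8 were called higher, with a median of 1.91 over those tested. Only 11 passed it with the rich libraries left out. A gene that passes only through the class where it is high has to differ, so this count and median are a description. The summed level of the B cell list did not separate the classes. The rich libraries had 65.8, 31 and 64.4 CPM and the poor 26.1, 44.6, 38.4 and 26.2 CPM. Male iβARK 2 thus lay inside the range of the poor and of the 5xFAD mCherry libraries (29 to 45.5 CPM). Cd79a, the signalling chain of the B cell receptor, stood at 5.32, 1.65 and 5.94 CPM in the rich libraries and 0.0977 to 0.265 CPM in the poor. Ms4a1, which mature plasma cells largely lose, also separated, at 1.03, 0.373 and 1.44 CPM against 0.0312 to 0.068.

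Genes of the secretory pathway and the unfolded protein response differed by small amounts. None of 30 reached the 2-fold call, yet 19 of 30 lay higher in every rich library, where 5.61% of all genes did so. The list median was 0.30. Creld2, an endoplasmic reticulum chaperone partner, stood at 27, 19.2 and 24.8 CPM in the rich and at 14.1, 11.9, 10.8 and 9.8 CPM in the poor libraries, a difference of 0.93 ± 0.16. Pdia4, a disulfide isomerase, stood at 67.4, 62.8 and 75.3 CPM against 36.6 to 44.1, a difference of 0.81 ± 0.13. For both genes the poor libraries lay inside the range of the 5xFAD mCherry group.

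T cell genes were higher in the same 3 libraries, least so in male iβARK 2. Of 24 tested T cell genes 13 were called higher and none lower, with a median of 2.49. Cd3g, a chain of the T cell receptor complex, stood at 4.7, 0.657 and 3.98 CPM in the rich and at 0.221, 0.146, 0.17 and 0.0623 CPM in the poor libraries, a difference of 4.35 ± 0.89. Cd3d, Cd3e and Trbc1 separated in the same way, with differences of 4.55 ± 0.96, 4.02 ± 0.89 and 4.96 ± 1.15. T cell receptor variable segments with at least 1 count numbered 47, 22 and 42 in the rich libraries, 5 to 18 in the poor and 4 to 13 in the mCherry libraries. Summed T cell receptor transcripts did not separate the classes: they stood at 26.6, 10.3 and 28.9 CPM in the rich, at 2.85, 13.1, 16.4 and 12.6 CPM in the poor and at 5.44 to 25.8 CPM in the mCherry libraries. Male iβARK 2 had 0 variable segments with 10 counts or more, as had all 4 poor libraries.

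Of 16 cytotoxic lymphocyte genes, 9 passed the filter on low counts and 7 of these were called higher (median 2.72). Only 6 passed it with the rich libraries left out, and a gene that passes only through the class where it is high has to differ, so the count and median are a description. Ccl5, a chemokine of effector T and NK cells, stood at 27.8, 4.19 and 26.1 CPM in the rich and at 0.81 to 2.02 CPM in the poor libraries. Gzmb, a killing protease, stood at 1.08, 0.213 and 1.02 CPM against 0.0312 to 0.114. Nkg7, a protein of cytotoxic granules, stood at 2.25, 0.284 and 2.09 CPM against 0.14 to 0.195. For these genes male iβARK 2 came nearest to the poor libraries.

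Of the chemokines, receptors and survival factors that draw and keep lymphocytes, 13 of 23 were called higher (median 1.80). Cxcl13, which attracts B cells into follicles, stood at 23.5, 3.19 and 15.4 CPM in the rich and at 0.0442, 0.879, 3.18 and 0.826 CPM in the poor libraries, so male iβARK 2 and poor female iβARK 2 were nearly level. Cxcl9, an interferon gamma induced attractant of T cells, stood at 14.9, 4.56 and 15.9 CPM against 0.177, 1.74, 2.26 and 0.218. Itgal, the leukocyte integrin LFA-1 chain, stood at 17.2, 4.53 and 25.4 CPM against 1.19, 2.78, 2.33 and 1.59. Gimap4, a lymphocyte GTPase, stood at 9.41, 2.13 and 7.4 CPM against 0.203 to 0.8.

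Myeloid genes split. Ly6c2, a surface marker of inflammatory monocytes and also of plasma cells and some T cells, had the highest fitted difference of the named genes outside the immunoglobulins, 6.26 ± 0.61. It stood at 15, 4.4 and 43 CPM in the rich and at 0.155, 0.521, 0.629 and 0.343 CPM in the poor libraries. Ccr2, the monocyte homing receptor, stood at 1.07, 0.586 and 2.08 CPM against 0.0312 to 0.332. In all, 5 of 13 monocyte and macrophage genes and 4 of 11 dendritic cell genes were called higher. Neutrophil and mast cell genes (0 of 4) and red cell genes (0 of 5) had no call in either direction. Lists this short hold few or no calls at the share over all genes, 1.67% higher and 0.416% lower. S100a8, a neutrophil marker, was at 0 to 0.106 CPM in the rich and 0 to 0.136 CPM in the poor libraries. Haemoglobin transcripts were highest in rich female iβARK 4 (Hbb-bs 59.9 CPM) and stood at 19.3 and 24.4 CPM in the other rich libraries, inside the 18.4 to 33 CPM of the poor.

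Slpi, a secreted protease inhibitor, stood at 4.92, 3.76 and 17.8 CPM in the rich and at 0.358 to 0.798 CPM in the poor libraries. C3, the central complement component, stood at 130, 17.6 and 134 CPM in the rich and at 1.35, 7.75, 11.5 and 2.37 CPM in the poor libraries, a difference of 4.80 ± 0.78. With C3, 3 of 18 complement genes were called higher, where 1.67% of all genes were, and the list median was 0.65. Serping1, the C1 inhibitor, stood at 14.9, 6.36 and 16 CPM against 2.54 to 4.85. C4b, at 293, 235 and 517 CPM against 115, 306, 215 and 154, overlapped. Of 10 receptors and other proteins that bind antibody 1 was called higher, Trim21, a cytosolic antibody receptor and itself interferon induced. It stood at 14.8, 7.44 and 15.5 CPM against 4.49 to 6.39. A list of 10 holds few or no calls at the share over all genes, so the lack of further calls is not a result about these genes. Fcgr4, a receptor for IgG2 classes, overlapped: male iβARK 2 and poor female iβARK 1 both had 1.37 CPM.

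**Figure D3:**
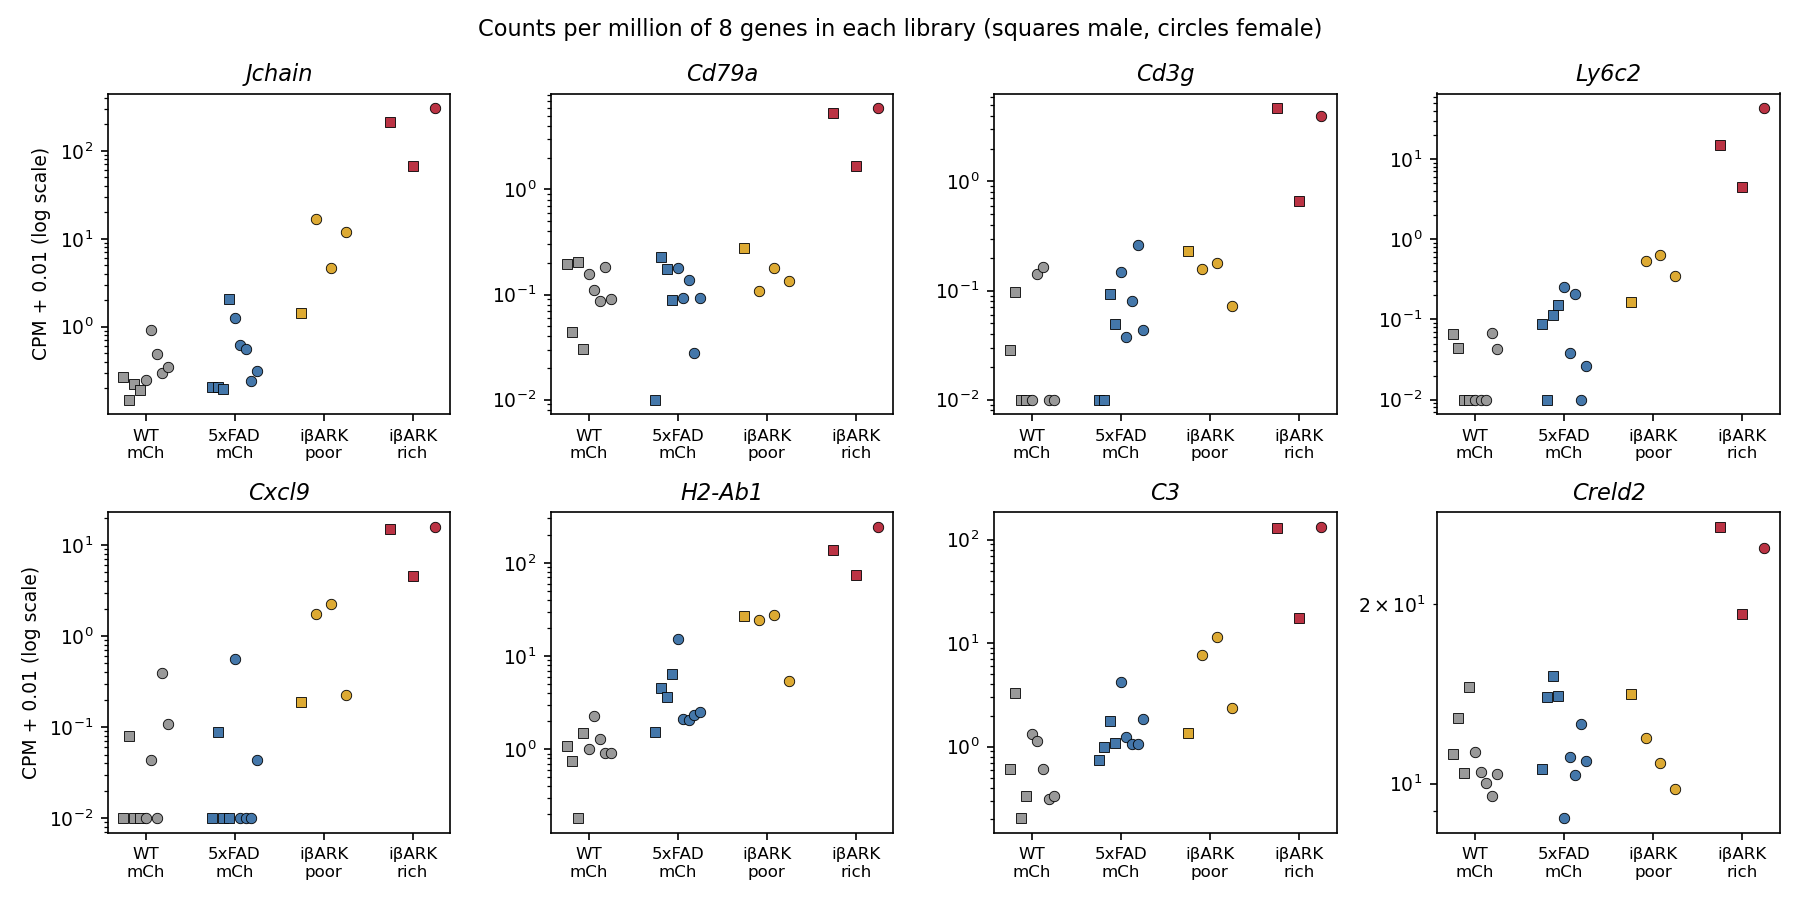
CPM plus 0.01 (log axes) of 8 genes in each of the 25 libraries, by class; squares are male and circles female. All 3 rich libraries lie above all 4 poor libraries in each panel, with male iβARK 2 lowest of the rich, and Creld2 differs least.

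Interferon gamma response genes formed the list with the most calls. Of 27 genes, 19 were called higher and none lower (median 2.05), and the summed level was 269 to 762 CPM in the rich, 106 to 219 CPM in the poor, and 55.7 to 103 CPM in the 5xFAD mCherry libraries. Gbp8, an interferon induced GTPase, stood at 4.85, 2.01 and 7.98 CPM in the rich and 0.234 to 0.602 CPM in the poor libraries. Acod1, which makes itaconate in activated myeloid cells, stood at 1.74, 0.302 and 2.49 CPM against 0 to 0.212. Iigp1, an interferon induced GTPase, stood at 32.5, 14 and 58.4 CPM against 2.01, 9.9, 5.39 and 7.23.

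The type I interferon list differed in pattern. Its median was 1.52, but 4 of 34 genes were called, against 19 of 27 in the interferon gamma list, and 6 lay higher in every rich library. Over all tested genes 1.67% were called higher and 5.61% lay higher in every rich library. In the genes named next, male iβARK 2 lay inside the range of the poor libraries. The overlap was with female poor libraries: male iβARK 3, the poor library of its own sex, was lowest in each. Since calls compare across sexes, the low count of calls depends on this overlap. Within a sex, on log2(CPM + 0.5), the list median was 1.36 in males and 1.43 in females. Oas3, an antiviral sensor, stood at 11.1, 1.81 and 12.2 CPM in the rich and at 0.619, 2.42, 1.04 and 1.39 CPM in the poor libraries. Mx1, an antiviral GTPase, stood at 7.5, 1.77 and 7.13 CPM against 0.508, 2.57, 1.62 and 2.77. Zbp1, a sensor of nucleic acid, stood at 10.8, 3.05 and 17.4 CPM against 0.486, 3.12, 1.63 and 1.82. Cxcl10, listed under interferon gamma, showed the same overlap, at 17.6, 3.83 and 14.5 CPM against 0.287, 5.86, 1.68 and 2.29.

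Interferons act on DNA through the interferon-stimulated response element, searched here as GAAA, any 2 bases and a second GAAA, and the gamma-activated site, searched as TTCNNNGAA, on both strands of the 300 bases from 250 before to 50 after each RefSeq start (GRCm38.p6). The motifs can share bases where they adjoin. Of the interferon gamma list, 17 of 27 genes had a promoter in the table, and 64.7% of these held the first motif and 47.1% the second. For type I genes (24 of 34) the shares were 66.7% and 20.8%, for MHC class I genes (16 of 18) 31.2% and 6.25%, and for class II genes (9 of 14) 11.1% and 11.1%. Over all 27025 genes with a promoter the shares were 3.99% and 9.55%. The 250 bases before the start of Cxcl10 are shown as an example with the first motif in capitals (minus strand, read 5′ to 3′).
Cxcl10 (chr5:92348890-92349139): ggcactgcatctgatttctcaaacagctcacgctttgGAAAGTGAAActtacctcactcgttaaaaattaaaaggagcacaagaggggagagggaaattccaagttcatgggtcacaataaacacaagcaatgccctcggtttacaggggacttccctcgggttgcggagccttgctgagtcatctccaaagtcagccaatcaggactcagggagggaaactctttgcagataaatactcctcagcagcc
A match is a description of the letters, not evidence of binding, and these genes are known interferon targets.

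Antigen presentation genes were higher in the rich libraries in both MHC classes. Of 18 class I genes 12 were called (median 1.5), and 16 lay higher in every rich library. Nlrc5, the activator of class I genes, stood at 27.8, 18 and 39.5 CPM in the rich and at 5, 8.04, 7.04 and 6.11 CPM in the poor libraries, a difference of 2.31 ± 0.34. Tap1, the peptide transporter, stood at 41.7, 18.9 and 58.9 CPM against 7.29 to 13.6. Of H2-Q7 and H2-Q6, near-identical class I genes whose reads may be split, H2-Q7 stood at 57, 21.1 and 72.2 CPM against 6.37 to 9.95.

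Of 14 class II genes 8 were called (median 1.83). Within a sex, on log2(CPM + 0.5), the list median was 0.77 in males and 1.77 in females. H2-Ab1 (the class II beta chain) stood at 136, 74.5 and 245 CPM in the rich and at 26.7, 24.7, 27.4 and 5.34 CPM in the poor libraries, a difference of 2.87 ± 0.62. Cd74, the invariant chain, stood at 219, 126 and 382 CPM against 51.4, 43.5, 49 and 9.52. Within the poor class female iβARK 3 was lowest for H2-Ab1, H2-Aa, H2-Eb1 and Cd74. In H2-Ab1 it overlapped the 5xFAD mCherry libraries, which ran from 1.53 to 15.3 CPM.

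**Figure D4:**
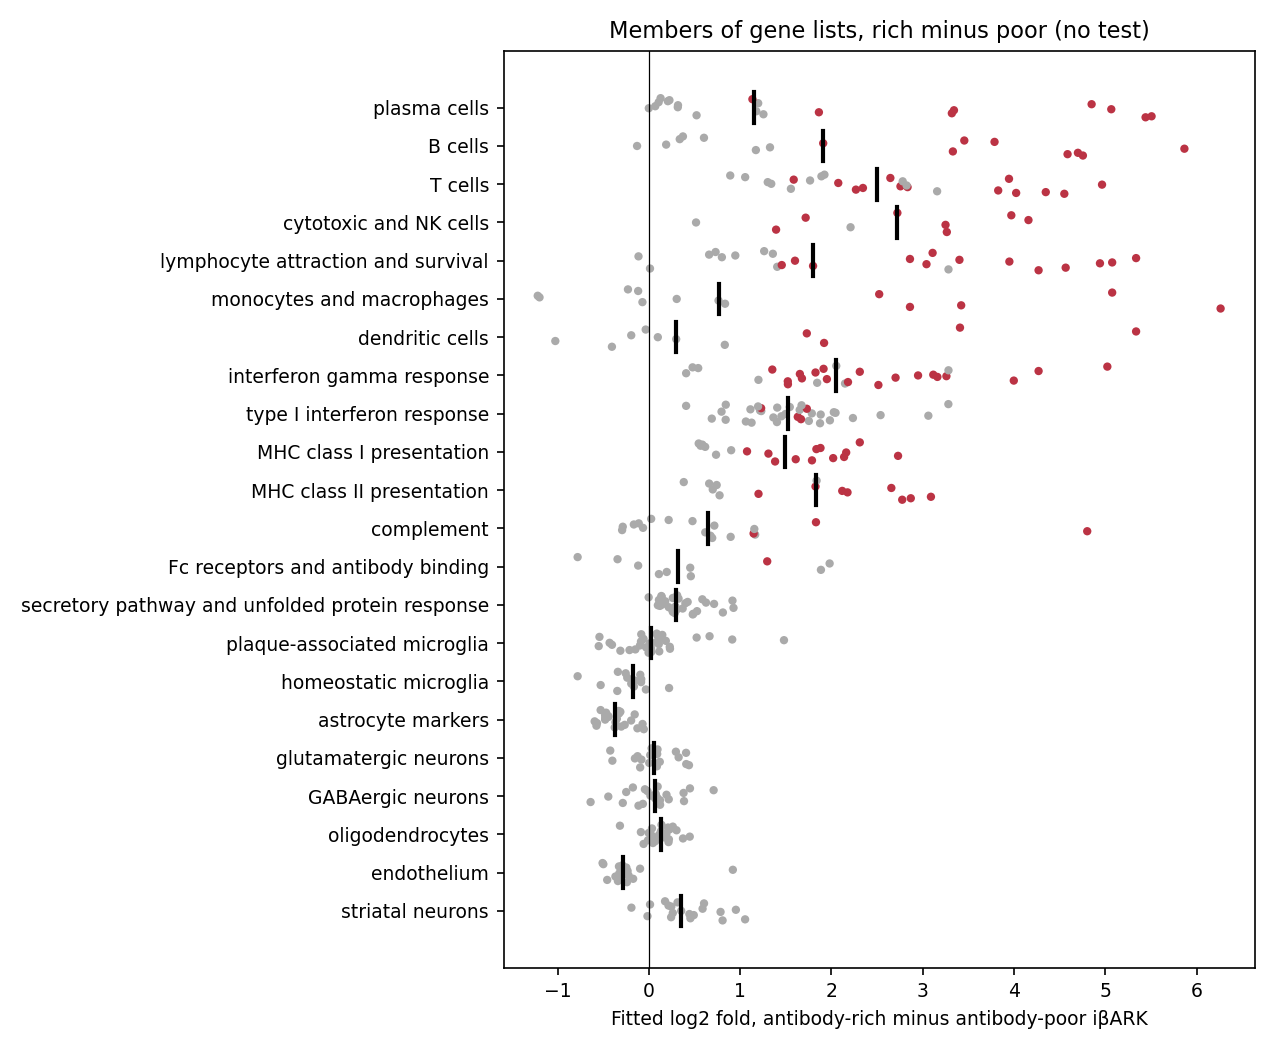
Fitted log2 fold of each tested member (points) of 22 gene lists, antibody-rich minus antibody-poor iβARK, with the list median as a black bar; red points were called higher, blue lower and grey not called, with no test. Lymphocyte, interferon and MHC lists have medians above 1, and microglia, astrocyte and neuron lists lie near 0.

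Lists of resident brain cells held almost no calls. The share over all tested genes was also low, 1.67% higher and 0.416% lower. Lists of this size hold few or no calls at that share, so the lack of calls is not a result about these cells. None of 30 plaque-associated microglia genes was called (median 0.02), nor any of 14 homeostatic microglia genes (-0.18), 23 astrocyte markers (-0.37), 18 glutamatergic (0.06) or 22 GABAergic neuron genes (0.07), 34 synaptic genes (-0.05) or 22 oligodendrocyte genes (0.14). Gpnmb, a plaque microglia gene, stood at 12.2, 4.08 and 53.7 CPM in the rich and at 2.41, 80.1, 34.1 and 8.26 CPM in the poor libraries. Reactive astrocyte genes had 3 of 31 calls, of which Iigp1 and Psmb8, an immunoproteasome subunit, are interferon induced. Of activated endothelium genes, Icam1, a leukocyte adhesion molecule, stood at 13.4, 5.75 and 12.9 CPM against 4.47, 5.81, 5.04 and 3.08. Vcam1, another adhesion molecule, separated, at 43, 32.5 and 47.5 CPM against 18.8 to 28.5, a difference of 0.73 ± 0.17.

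Dissection and label checks did not follow Igkc throughout. Striatal neuron genes summed to 591, 1223 and 609 CPM in the rich and 577 to 843 CPM in the poor libraries, so rich male iβARK 2 held the most. Within a sex, on log2(CPM + 0.5), the striatal list median of rich minus poor was 1.02 in males and -0.39 in females. Oligodendrocyte genes summed to 5619, 13908 and 7530 CPM in the rich and 5952 to 9033 CPM in the poor libraries, again highest in male iβARK 2. None of the 19 striatal or 22 oligodendrocyte genes was called, where 1.67% of all genes were called higher and 0.416% lower. The part of either list in the values of male iβARK 2 was not tested. Grk2 stood at 300 to 333 CPM in the rich and 297 to 344 CPM in the poor libraries. Thy1, whose promoter drives the transgenes, stood at 1598, 1264 and 2063 CPM in the rich and at 1411, 2660, 2185 and 2217 CPM in the poor libraries, and overlapped.

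Genes lower in the rich libraries were few and differed less. The 12 named fallers had fitted differences from -1.66 to -0.89, and the last pair of them, Rgcc and Erich5, missed the 2-fold limit. Asb10, a ubiquitin ligase adaptor, stood at 0.671, 0.426 and 0.385 CPM in the rich and at 0.752, 4.1, 2.04 and 1.35 CPM in the poor libraries. Myo7a, an unconventional myosin, stood at 16.9, 17 and 5.27 CPM against 31.6, 19.2, 18.1 and 30.3. Hcn4, a pacemaker channel, stood at 3.04, 2.33 and 3.72 CPM against 11.1, 3.73, 4.46 and 4.36. Syt2, a synaptotagmin of fast inhibitory terminals, stood at 13.9, 19.2 and 21.2 CPM against 46.5, 48.2, 25.4 and 23.2. In Asb10, Myo7a, Hcn4 and Syt2 the gap between the classes was small beside the spread within the poor libraries. Acy3, Lox, Lgr5, Erdr1, Olfr316 and Tmem215 made up the rest.

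How much of the labelled iβARK effect rests on the rich libraries? All 7 iβARK libraries were compared with the 9 5xFAD mCherry libraries, sexes averaged, with edgeR's quasi-likelihood test and Benjamini-Hochberg adjustment. A total of 631 genes (3.01% of 20971) passed higher and 526 (2.51%) lower. With the 4 poor libraries alone, 411 (1.81% of 22751) passed higher and 521 (2.29%) lower, with a single male iβARK library left, whose spread is assumed to be that of the other groups. The filter on low counts follows the size of the smallest group, here that male library alone. The genes tested and the set adjusted over thus differ between the comparisons. The split of the first comparison depended on scaling: library totals gave 1115 higher and 136 lower, DESeq2 size factors 671 and 349. The labels do not say how mice were assigned or housed, and p-values measure the spread between these samples.

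Interferon and MHC genes passed also without the rich libraries, though fewer of them. Of 34 type I interferon genes, 34 passed higher with all 7 libraries (median log2 1.82) and 18 with the poor libraries alone (0.93). Of 27 interferon gamma genes, 24 and 12 passed (2.46 and 1.07). Class I went from 14 to 8 of 18 and class II from 8 to 5 of 14. In the poor libraries alone Nlrc5 was higher by 1.65 (edgeR adjusted p = 0.0046), Tap1 by 1.03 (0.0055) and H2-Ab1 by 2.31 (0.018), all log2.

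Lymphocyte lists mostly did not pass without the rich libraries. B cell genes went from 8 of 15 to 0 of 11 tested, plasma cell genes from 8 of 20 to 1 of 19 and lymphocyte attraction genes from 11 to 0 of 23. T cell genes went from 13 higher of 24 to 2 higher and 2 lower. The plasma cell gene that passed in the poor libraries was Jchain, at 2.62 (edgeR adjusted p = 0.013). Cxcl13, at 1.46, had an edgeR adjusted p of 0.67 there and Cd3g, at 1.49, of 0.39. The number of male libraries also fell from 3 to 1, and the 2 comparisons share their controls, so a list that passes in only 1 of them is not shown to differ. The libraries left out were chosen for an antibody transcript, so the loss of plasma and B cell calls was largely fixed by that choice. Fewer B cell genes also passed the filter on low counts without them. Lists of this size hold few or no calls at the share over all genes given above.

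Plaque-associated microglia genes passed in the lower direction. With all 7 libraries 12 of 30 passed lower (median -0.35), and with the poor libraries 1 of 30 did, at a nearly equal median of -0.38. Fcrls, a homeostatic microglia gene, stood at 13.2, 19.3 and 57.1 CPM in the rich, at 31, 115, 80.3 and 59.9 CPM in the poor, and at 59.9 to 185 CPM in the 5xFAD mCherry libraries. It fell by 1.39 on the log2 scale with all 7 (edgeR adjusted p = 0.00036), and fell by 1.02 with the poor alone (edgeR adjusted p = 0.036).

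**Figure D5:**
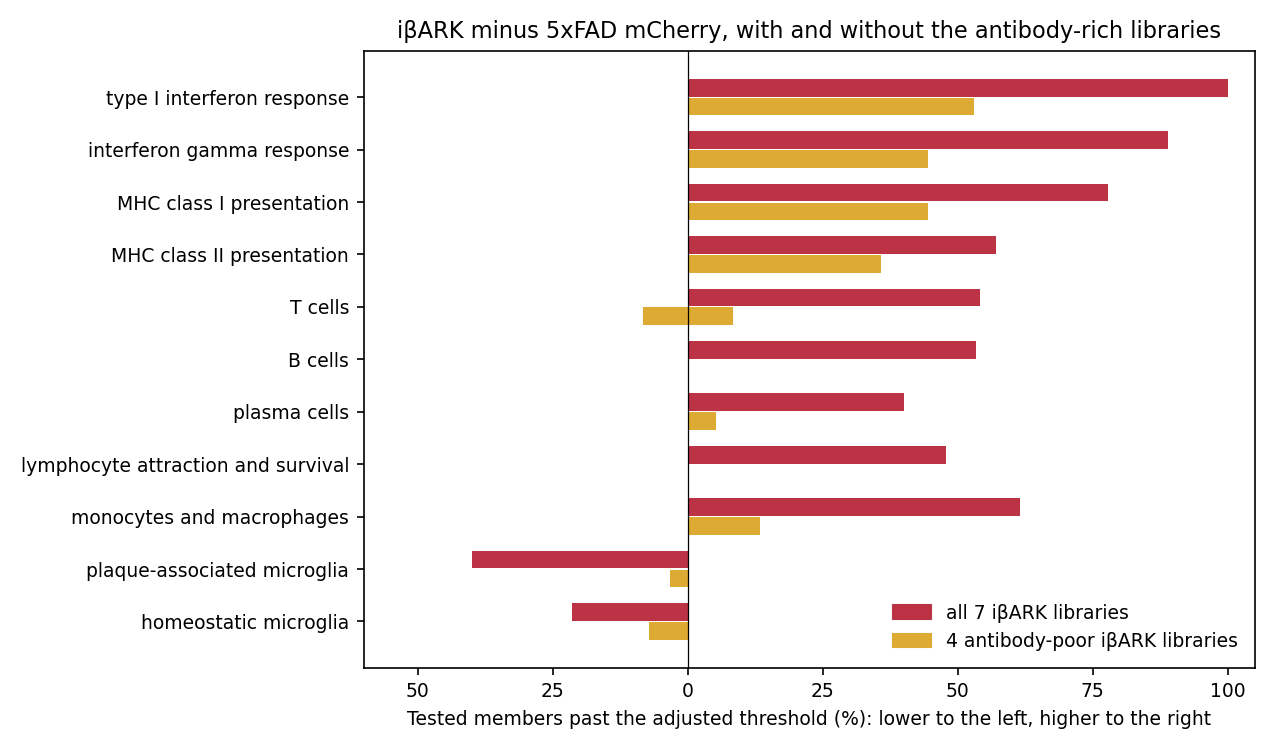
Share (%) of tested members of 11 gene lists that passed the edgeR test of iβARK minus 5xFAD mCherry, higher to the right and lower to the left, with all 7 iβARK libraries (red) and with the 4 antibody-poor ones (yellow). Type I interferon genes go from 34 of 34 to 18 of 34, and B cell genes from 8 of 15 to 0 of 11.

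The 18 mCherry libraries, which the rule did not use, gave a test of what moves with Igkc at low levels. Within labelled groups, genes were fitted with edgeR's quasi-likelihood test against log2(Igkc CPM + 0.1). None of 19505 genes passed in either direction (0% higher and 0% lower). At an unadjusted p under 0.05, 484 genes had positive and 299 negative slopes, 4.01% in all, and the DESeq2 Wald test called 2 and 3 genes. Of the genes called higher in rich libraries, 214 were tested here. Among these 138 had a positive slope, where 49.3% of all tested genes did, and the median slope was 0.03. In 13 of them the positive slope had an unadjusted edgeR p under 0.05. The count of positive slopes was not tested. Jchain had a slope of 0.44 (edgeR adjusted p = 0.07), and its 2.07 CPM in male 5xFAD mCherry 4 and 1.25 CPM in female 5xFAD mCherry 1 were the highest 5xFAD mCherry values. By list, slopes of either sign were counted. Class II genes had 4 of 14 slopes at an unadjusted edgeR p under 0.05 and none after adjustment, with a list median slope of 0.0046. H2-Ab1 was highest in female 5xFAD mCherry 1, at 15.3 CPM, where Igkc stood at 4.53 CPM. T cell genes had 0 of 16 and interferon gamma genes 1 of 24 such slopes. Larger shares than in class II were seen for striatal neuron (11 of 19, median slope 0.18) and meningeal fibroblast genes (8 of 20, 0.09). The same held for immediate early (9 of 27, median slope -0.05) and monocyte and macrophage genes (3 of 10, 0.08). Igkc spanned only 0 to 10.8 CPM in these libraries, far below the rich class.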

How the data were processed

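The authors deposited whole-number counts for 55291 gene symbols in 25 columns, 1 per library, per the file headers. The submitters' processing notes name fastp 0.23.2, Bowtie2 2.4.5, HISAT2 2.2.1, RSEM, DESeq2 1.32.0 and GRCm38. Annotation and strand setting: not given in the sources used here. The library kit was directional and RNA integrity numbers exceeded 7, per the labels' protocols.

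CPM are counts divided by the column total, times 1000000. GENCODE M21 gave positions and immunoglobulin types for 96.4% of symbols. Genes passed filterByExpr (minimum count 10, minimum total 15), and edgeR 4.0.16 in R 4.3.3, with limma 3.58.1 and TMM factors, fitted all 25 libraries in 6 labelled groups, plus 1 term for the rich iβARK libraries where rich and poor were compared. Tests used the quasi-likelihood F test, Benjamini-Hochberg adjustment and a threshold of 0.05. The scripts were tested on simulated data. Wilson intervals (95%) cover counting error only. Named genes are the 12 risers and 12 fallers of largest fold among non-overlapping genes with a mean of at least 1 CPM, up to 4 members of largest fold per list, the constant regions, Grk2, Thy1 and App; Gm and Rik symbols entered counts but are not named, and some genes the rule picks are not reported here. Variable segments named are those that led or came next in a library, picked after their values were seen. The libraries, gene lists and rules were chosen with earlier results of these data known. Alternatives were other scalings, filters, thresholds of Igkc, DESeq2 1.42.0, a replicate block and leaving out each library.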

Additional observations from a re-analysis of the deposited data

Results flagged for a closer look

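In 40 checks for a single distant value, made on several quantities in the labelled groups, 7 stood out. Chance alone gives about 1 in 20 in independent checks. These quantities overlap, and Igkc chose the rich libraries, so the 7 are not set against that rate. Igkc in female iβARK 4, at 1780 CPM, lay far above the other female iβARK libraries (41.3 to 49.9 CPM), as did the sum of all immunoglobulin symbols, at 7840 CPM against 184 to 240. Igkc is the gene that put this library among the antibody-rich ones, and the sum contains it, so both distances are a description that is not set against chance. The same library stood apart in the summed plasma cell list, at 759 CPM against 289 to 304, and in the summed T cell list, at 84.4 CPM against 23.3 to 26.6. Both lists were higher in the rich libraries, so these distances are likewise a description. Igkc in male 5xFAD mCherry 4 was 10.8 CPM, against 0.145 to 0.275 in the other male 5xFAD mCherry libraries. Male 5xFAD mCherry 1 was low in the plasma cell list, at 269 CPM against 289 to 292, and in the MHC class II list, at 166 CPM against 258 to 265. The male iβARK group has 3 libraries and was not checked in this way.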

How the results depend on the processing

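Igkc thresholds of 50 and 200 CPM gave the same classes. The 349 higher and 87 lower genes of rich minus poor became 680 and 170 without a filter on low counts and 83 and 12 with a stricter one. With only the iβARK libraries fitted, 52 were lower. Leaving out 1 library at a time gave 347 to 795 higher and 81 to 247 lower, the highest without male iβARK 2. For iβARK minus 5xFAD mCherry, the 631 higher and 526 lower genes became 1115 and 136 with library totals. Lower genes numbered 349 with DESeq2 size factors and 282 without a filter. The DESeq2 Wald test called 1012 higher, and the poor libraries alone gave 411 higher. Leaving out 1 library gave 308 to 1191 higher and 115 to 1015 lower. The lowest count higher came without female iβARK 4, the lowest count lower without male iβARK 2, and both highest without male iβARK 1. Without the rich libraries 6 log2 differences turned negative, none past the threshold: Derl3 -0.29, Slamf7 -0.061, Trbc1 -0.76, Cd3d -1.81, Acod1 -0.24 and Ighg1 -0.88, with adjusted p from 0.496 to 0.979. The slope on Igkc gave 2 higher and 2 lower genes without a filter, 2 and 3 with the DESeq2 Wald test, and 0 to 1 and 0 to 2 when 1 library was left out. Apart from the filters and left-out libraries, which change the number tested, the cause was not tested.

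With the replicate number as a block, 415 genes were higher and 229 lower in iβARK minus 5xFAD mCherry. The numbers did not pair the libraries: over 56 same-numbered pairs the median correlation of deviations was -0.008 (-0.276 to 0.253), and 4 of 25 libraries correlated best with their own number. Low counts limit the B and T cell genes, most of which lie under 1 CPM in the poor and mCherry libraries.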
